A study of Mus musculus with 22 samples.

Results

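Levels of H/ACA small nucleolar RNAs (snoRNAs) were compared between cardiomyocytes obtained from mouse embryonic stem cells (ESCs) and NIH3T3 fibroblasts, to ask which of these RNAs a differentiated muscle cell shares with a fibroblast line and which differ. The comparison takes 6 of the 22 samples of the series, chosen by their titles: 3 of cardiomyocytes at day 16 of differentiation and 3 of NIH3T3. By the sample descriptions the cardiomyocyte samples form 1 time course with day 0 cells labelled aMHC-puro ESCs. That name denotes puromycin resistance under the promoter of the cardiac alpha myosin heavy chain gene. The line is not named in the labels of the cardiomyocyte samples themselves. The stem cells were taken through embryoid bodies and puromycin was used to select the cardiomyocytes. NIH3T3 is a single immortalised line of embryonic mouse fibroblasts and no treatment of it is named. RNA was counted with a custom nCounter code set, a method that counts colour-coded probes bound to RNA without amplification. The table holds 72 features, all snoRNAs per the design text, so no marker of cardiomyocytes, fibroblasts or residual stem cells was measured and the cell type labels could not be checked. The other 16 samples belong to 5 groups and are used here only to place levels.

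H/ACA snoRNAs assemble with the enzyme dyskerin and base-pair with ribosomal RNA (rRNA) or small nuclear RNA, where they direct the conversion of uridine to pseudouridine. In mammals most lie in introns of other genes, called hosts, and are released when the host transcript is spliced. Hosts are often genes of ribosomal proteins and translation factors, or long non-coding RNAs of the Snhg group. A few members, such as Snora73a (U17), act in the cleavage of precursor rRNA. The rRNA targets named below are those annotated for the human orthologues.

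The 2 groups lie in different parts of the deposited table. In NIH3T3 5 features are blank, as in the spermatogonial stem cells (SSCs) and RAW264.7 macrophages, while the cardiomyocytes and all ESC groups have a value for each feature. No source used here says whether the parts were run or normalized apart, so part of the table and cell type cannot be told apart. The 67 features without blanks were compared on the deposited scale, as log2(normalized count + 1), and again after the median log2 value of each sample was subtracted. A difference is called here where the adjusted p of limma's moderated test was under 0.05, and both scalings were asked to call it in the same direction before it was counted as holding on both. Of the 67 features 33 match a gene symbol and 34 are listed by transcript ID only.

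Total signal over the 67 features was 1317664, 1136962 and 1173602 normalized counts in the cardiomyocyte samples, against 1325259, 1327019 and 1470989 in NIH3T3. All 3 cardiomyocyte totals lay below all 3 NIH3T3 totals, with a mean difference of -165013 (exact permutation test, two-sided, p = 0.1, the smallest that 3 against 3 samples allow). As whole counts, with each value divided by the step of its sample as described below, the totals overlapped. Cardiomyocyte sample 1 had 1327413 and NIH3T3 sample 2 had 1325283, and the group means differed by -206375 (exact permutation p = 0.2). In RNA from whole cultures, fewer cells that hold a snoRNA and less of it per cell cannot be told apart. The median log2 level was 12.95 ± 0.42 in cardiomyocytes and 13.51 ± 0.15 in NIH3T3 (SD, n = 3 each; exact permutation p = 0.2). Over all features the median log2 difference, cardiomyocytes minus NIH3T3, was -0.29 as deposited. After median centring it was 0.27, because the sample medians lay further apart (by -0.55) than the typical feature did. The deposited scale thus places the typical snoRNA lower in cardiomyocytes and the centred scale places it higher: 46 of 67 differences were below 0 as deposited and 20 after centring.

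The cardiomyocyte samples were less alike than those of NIH3T3. The median SD of a feature was 0.39 on the log2 scale in cardiomyocytes and 0.14 in NIH3T3, and 59 of 67 features had the larger SD in cardiomyocytes. Cardiomyocyte sample 1 differed by more than 2-fold from sample 2 in 17 features and from sample 3 in 17, while samples 2 and 3 differed by that much in 8. No feature differed by more than 2-fold between any pair of NIH3T3 samples. Where the call on a named snoRNA changes without cardiomyocyte sample 1, that value is given.

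Of 67 features 12 were called as deposited (17.9%), 3 higher and 9 lower in cardiomyocytes. After median centring 10 were called (14.9%), 8 higher and 2 lower. Other scalings gave 4 higher and 5 lower (centred on the mean), 7 and 7 (equal totals) and 5 and 6 (quantile normalization). Both scalings called 5 in the same direction (7.46%), of which 3 were higher and 2 lower in cardiomyocytes. The 2 lower ones were Snora24 and Snora2b, and the 3 higher ones are listed by ID only. The samples of the groups did not overlap in 30 features as deposited (44.8%) and in 24 after centring (35.8%).

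These counts depended on single samples. Without cardiomyocyte sample 1 there were 29 calls as deposited, 33 after centring and 11 on both, of which 6 were higher and 5 lower. Without cardiomyocyte sample 2 there were 7 as deposited and 4 on both. Without NIH3T3 sample 1 there were 5 as deposited, 3 after centring and 1 on both. Without NIH3T3 sample 2 or 3 the deposited scale gave 0 calls in limma, with 20 and 16 features at an unadjusted p under 0.05, and the centred scale gave 2 and 1.

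**Figure D1:**
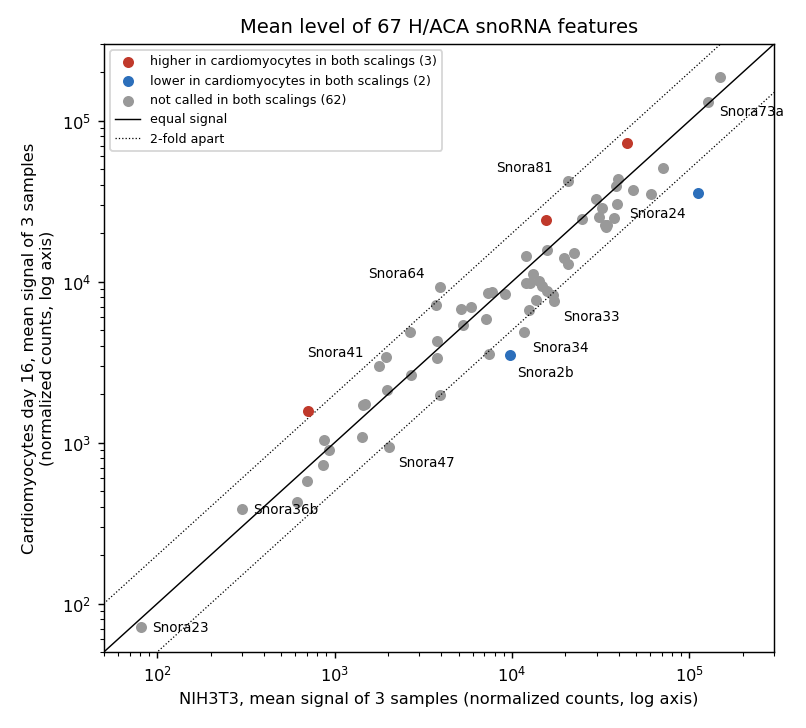
Mean signal of each of the 67 features in NIH3T3 (x axis) and cardiomyocytes at day 16 (y axis), in normalized counts on log axes, n = 3 samples per group. Red points (3) were higher and blue points (2) lower in cardiomyocytes on both scalings, grey points were not called on both, and the lines mark equal signal and 2-fold differences.

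Snora24 showed the largest difference of a named snoRNA on the deposited scale. It guides 18S rRNA and lies in the non-coding host Snhg8. Its signal was 42672, 28040 and 36527 normalized counts in cardiomyocytes, against 102447, 110746 and 121116 in NIH3T3, so the groups were far apart without overlap. As deposited it was 3.16-fold lower in cardiomyocytes (log2 difference -1.66 ± 0.20 SE, adjusted p 0.0078 in limma), and after median centring 2.15-fold lower (-1.10 ± 0.25, adjusted p 0.016). Snora24 made up 3.24%, 2.47% and 3.11% of the summed signal in cardiomyocytes and 7.73%, 8.35% and 8.23% in NIH3T3. As deposited, the 3 NIH3T3 samples held more of it than each of the other 19 samples of the series. In the aMHC-puro ESCs at day 0 it averaged 80403 ± 1032, and in RAW264.7 86090 ± 20380 (SD, n = 3 each). The other ESC groups averaged 69121 ± 18066 and 39258 ± 20424 (SD, n = 3 each), and SSCs 39375 ± 4472 (SD, n = 4). On the deposited scale the cardiomyocyte mean was the lowest of all groups, but its samples overlapped those of SSCs and of the lower ESC group. The order of groups was not examined after centring.

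Snora2b, a guide of 28S rRNA encoded in Kansl2, was the other named snoRNA called on both scalings. It held 4589, 3292 and 2606 normalized counts in cardiomyocytes and 8271, 10500 and 10556 in NIH3T3. It was 2.85-fold lower in cardiomyocytes as deposited (-1.51 ± 0.25, adjusted p 0.011) and 1.94-fold lower after centring (-0.96 ± 0.24, adjusted p 0.024). Snora34, a 28S guide from the same host, went the same way. It had 5895, 4805 and 3902 normalized counts in cardiomyocytes and 9627, 12539 and 12699 in NIH3T3. The difference passed as deposited (-1.26 ± 0.22, adjusted p 0.011) but not after centring (-0.71 ± 0.24, adjusted p 0.096), where it passed without cardiomyocyte sample 1 (-0.62, adjusted p 0.023) or 2 (-0.82, adjusted p 0.049). On the deposited scale all 3 cardiomyocyte samples held less Snora34 than each of the other 19 samples. That order was not examined after centring.

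Both calls on Snora24 and Snora2b also held when samples were centred on their mean log2 value, scaled to equal totals or quantile normalized, and Snora34 passed in 4 of the 5 scalings. Leaving out NIH3T3 sample 2 or 3 ended the deposited calls on all 3 snoRNAs (adjusted p 0.065 to 0.079), with log2 differences of -1.66 and -1.60 for Snora24. After centring, leaving out any of the 3 NIH3T3 samples ended the calls on Snora24 (adjusted p 0.086 to 0.13) and Snora2b (0.0998 to 0.19).

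Promoter sequence from RefSeq (GRCm38.p6) is shown for the hosts of these 3 snoRNAs, as the 250 bases before the annotated start of each host, 5′ to 3′ on the strand of the gene. Snhg8 is shown because it hosts the named snoRNA with the largest deposited difference, and Kansl2 because both of its measured snoRNAs were lower in cardiomyocytes on the deposited scale. Snhg8 lies at chr3:123508337-123508586 and Kansl2 at chr15:98534270-98534519, both windows on the minus strand. Capitals mark the letters TATAAA.
Snhg8: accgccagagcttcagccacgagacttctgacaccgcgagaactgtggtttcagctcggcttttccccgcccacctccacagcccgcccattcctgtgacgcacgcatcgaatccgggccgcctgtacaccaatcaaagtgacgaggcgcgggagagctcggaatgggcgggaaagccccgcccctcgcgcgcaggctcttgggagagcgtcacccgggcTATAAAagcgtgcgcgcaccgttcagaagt
Kansl2: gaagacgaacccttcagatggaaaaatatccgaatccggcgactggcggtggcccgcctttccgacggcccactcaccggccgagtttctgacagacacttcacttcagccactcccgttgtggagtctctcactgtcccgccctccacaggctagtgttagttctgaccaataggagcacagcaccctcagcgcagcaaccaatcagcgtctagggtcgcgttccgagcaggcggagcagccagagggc
The Snhg8 window holds TATAAA once, beginning 30 bases before the start, and the Kansl2 window holds none. These letters were searched on both strands and occur in 12.4% of the 32851 promoter windows of the table. CACGTG (6.02% of windows) and CCGGAAG (6.91%) are in neither window. GC content was 64.0% for Snhg8, and both windows lay above the median of 52.4%. Host transcripts were not measured.

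**Figure D2:**
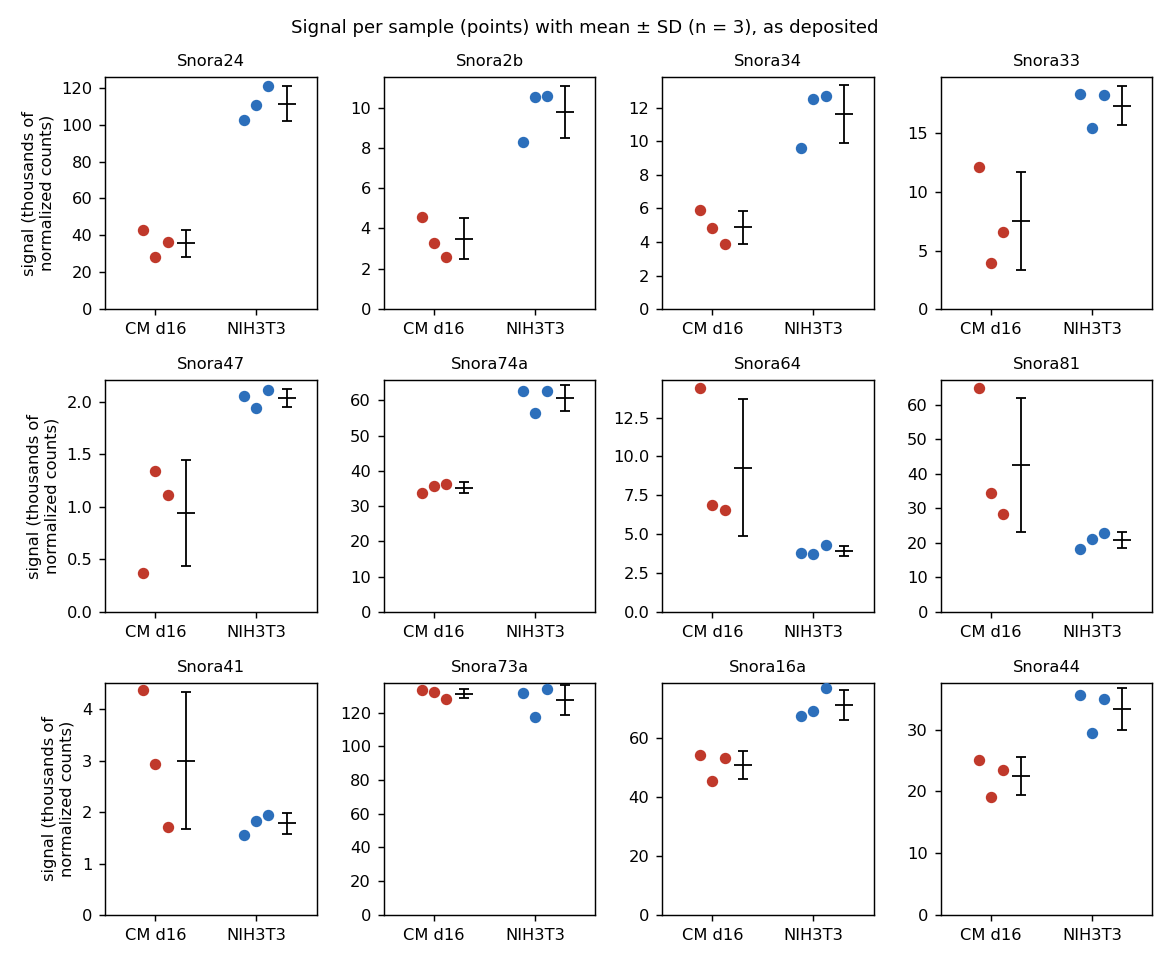
Signal of 12 snoRNAs in each sample, in normalized counts as deposited (axes in units of 1000), with cardiomyocytes at day 16 (CM d16, red) left of NIH3T3 (blue). Points are samples and bars are mean ± SD (n = 3 each). Of these snoRNAs only Snora73a and Snora41 overlap between the groups, and cardiomyocyte values of Snora64, Snora81 and Snora41 spread widely.

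The features higher in cardiomyocytes on both scalings carry transcript IDs that the annotation table does not pair with a name. ENSMUST00000083719.1 held 1336, 1964 and 1439 normalized counts in cardiomyocytes and 811, 597 and 706 in NIH3T3. It was 2.23-fold higher in cardiomyocytes as deposited (1.15 ± 0.21, adjusted p 0.013) and 3.27-fold higher after centring (1.71 ± 0.35, adjusted p 0.016), and it passed in all 5 scalings. Leaving out NIH3T3 sample 2 or 3 ended the call as deposited (limma adjusted p 0.065 and 0.079) and after centring (0.067 and 0.062). The centred call also ended without cardiomyocyte sample 3 (adjusted p 0.093). ENSMUST00000082579.1 had 61197, 87563 and 69023 in cardiomyocytes and 45791, 41196 and 47222 in NIH3T3, a 1.61-fold difference as deposited that lay just inside the threshold (0.68 ± 0.19, adjusted p 0.0496), and 2.36-fold after median centring (1.24 ± 0.34, adjusted p 0.036). It did not pass when centred on the mean (0.93, adjusted p 0.053). Its deposited call ended without cardiomyocyte sample 2 or 3 (limma adjusted p 0.067 and 0.077) and without any single NIH3T3 sample (0.15 to 0.16). The third, ENSMUST00000083703.1, had 20753, 25903 and 25763 in cardiomyocytes and 16119, 14542 and 16157 in NIH3T3, again without overlap. It was 1.54-fold higher as deposited (0.62 ± 0.16, adjusted p 0.045) and 2.26-fold after median centring (1.18 ± 0.33, adjusted p 0.037), but its adjusted p was 0.060 with quantile-normalized values. Its deposited call also ended without cardiomyocyte sample 2 and without any single NIH3T3 sample.

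Among named snoRNAs, 3 were called higher in cardiomyocytes after median centring only. Snora64, a guide of 28S rRNA in the ribosomal protein gene Rps2, held 14371, 6887 and 6576 normalized counts in cardiomyocytes and 3766, 3739 and 4323 in NIH3T3. The groups did not overlap, and cardiomyocyte sample 1 stood well above samples 2 and 3. As deposited the 2.20-fold difference just missed the threshold (1.14 ± 0.32, adjusted p 0.056), and after centring it was 3.24-fold (1.69 ± 0.25, adjusted p 0.0040). Snora64 passed in 4 of 5 scalings and, as deposited, without cardiomyocyte sample 1 (0.77, adjusted p 0.0085). Snora81, a 28S guide in the translation factor gene Eif4a2, had 64776, 34501 and 28317 in cardiomyocytes and 18313, 21246 and 22832 in NIH3T3. Its difference was 0.94 ± 0.32 as deposited (adjusted p 0.077) and 2.83-fold after centring (adjusted p 0.0050). Without cardiomyocyte sample 1 it passed on the deposited scale as well (0.59, adjusted p 0.034). Snora41, in the elongation factor gene Eef1b2, had 4372, 2927 and 1704 in cardiomyocytes and 1563, 1828 and 1953 in NIH3T3. The groups overlapped as deposited (0.66 ± 0.35, adjusted p 0.22), and of the 5 scalings it passed in median centring only (1.21 ± 0.27, adjusted p 0.016).

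Another 5 named snoRNAs were lower in cardiomyocytes on the deposited scale, Snora34 among them, and were not called after centring. Snora74a (U19), a snoRNA of precursor rRNA processing hosted in Snhg4, had 33689, 35788 and 36438 normalized counts in cardiomyocytes and 62744, 56550 and 62735 in NIH3T3, with little spread in either group. It was 1.72-fold lower as deposited (-0.78 ± 0.14, adjusted p 0.013) and differed by -0.23 ± 0.30 after centring (adjusted p 0.65). It also passed when scaled to equal totals (-0.59, adjusted p 0.039) and under quantile normalization (-0.53, adjusted p 0.0073). Snora3, a 28S guide in Rpl27a, fell by 0.86 on the log2 scale as deposited (adjusted p 0.039), differed by -0.30 after centring (adjusted p 0.42) and passed in 3 of 5 scalings. Snora21 (Rpl23) and Snora17 (Snhg7), both 28S guides, fell by 0.67 and 0.61 (adjusted p 0.026 and 0.039) and passed on the deposited scale only, with centred differences of -0.12 and -0.054 (adjusted p 0.83 and 0.92). On the deposited scale all 3 cardiomyocyte samples held less Snora21 (12518, 12420 and 13914) than each of the other 19 samples. That order was not examined after centring.

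Snora33 and Snora47 had large mean differences that did not pass. Snora33, a 28S guide in Rps12, had 12124, 3907 and 6582 normalized counts in cardiomyocytes and 18366, 15450 and 18274 in NIH3T3. The groups did not overlap, yet the spread of the cardiomyocyte samples left an adjusted p of 0.060 (-1.35 ± 0.40), or 0.13 after centring. Without cardiomyocyte sample 1 it was called on both scalings (-1.77 and -0.98, adjusted p 0.0021 and 0.017). Snora47, hosted in Zbed3, had 375, 1343 and 1113 in cardiomyocytes and 2052, 1947 and 2113 in NIH3T3. The difference was -1.30 ± 0.47 as deposited (adjusted p 0.086), and -0.74 without cardiomyocyte sample 1 (adjusted p 0.010). After centring the samples overlapped (-0.75 ± 0.58, adjusted p 0.42), and without cardiomyocyte sample 1 the centred difference was 0.059. As deposited, NIH3T3 held more Snora47 than each of the other 19 samples.

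**Figure D3:**
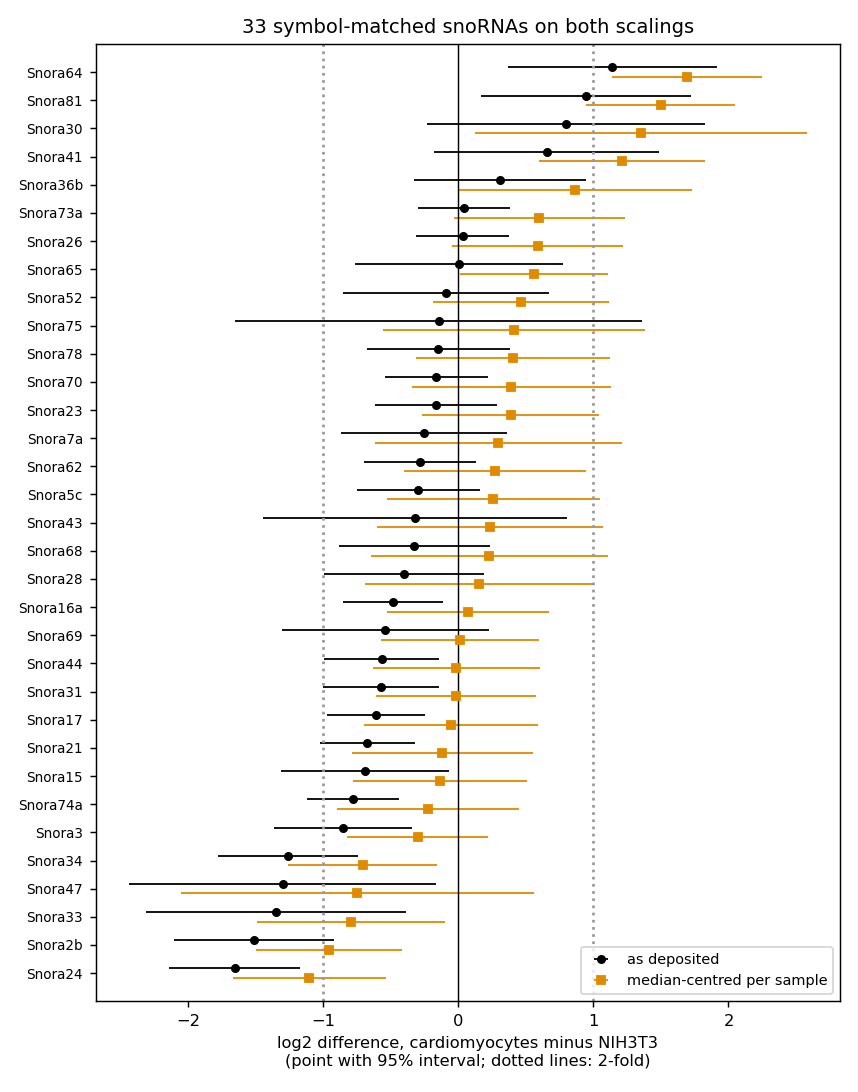
Log2 difference, cardiomyocytes minus NIH3T3, of the 33 symbol-matched snoRNAs with its 95% interval, as deposited (black circles) and after median centring (orange squares), ordered by the deposited difference. Dotted lines mark 2-fold. Intervals of Snora24, Snora2b, Snora34 and Snora33 lie below 0 on both scalings, and those of Snora64 and Snora81 lie above 0 on both.

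Shared levels were judged by the 95% interval of the difference, since a p over the threshold does not show that levels are alike. The interval lay within 2-fold for 30 of 67 features as deposited (44.8%), for 19 after centring (28.4%) and for 7 on both scalings (10.4%). The 7 comprise Snora16a, Snora44, Snora17 and Snora62 and 3 features listed by ID, of which Snora17 was called lower as deposited and the other 6 on neither scaling. Snora16a, in Snhg12, had 54314, 45589 and 53147 normalized counts in cardiomyocytes and 67530, 69084 and 77147 in NIH3T3. These values do not overlap, and the interval of its log2 difference ran from -0.86 to -0.11 as deposited and from -0.53 to 0.67 after centring. Snora44, an 18S guide from the same host, had 25082, 19084 and 23430 in cardiomyocytes and 35615, 29497 and 34876 in NIH3T3 (intervals -0.99 to -0.15 and -0.63 to 0.60). Snora62, a 28S guide in Rpsa, had 5768, 5158 and 6592 in cardiomyocytes and 7370, 6249 and 7725 in NIH3T3, and its intervals (-0.70 to 0.13 and -0.41 to 0.94) include 0 on both scalings. The adjusted p of all 3 missed the threshold on both scalings, but without cardiomyocyte sample 1 Snora16a and Snora44 were lower as deposited (-0.53 and -0.65, adjusted p 0.034 and 0.025). Without an NIH3T3 sample the count of 19 fell to between 9 and 11.

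Snora73a was the most abundant named snoRNA in both groups. It held 133185, 132112 and 128105 normalized counts in cardiomyocytes and 131357, 117120 and 134060 in NIH3T3, and the values overlapped. On the deposited scale the difference was 0.04, with an interval from -0.30 to 0.38, the level being alike within that bound. After centring it was 0.60 (-0.04 to 1.23, adjusted p 0.19), and without cardiomyocyte sample 1 the centred difference passed (0.83, adjusted p 0.0069). Snora26, a 28S guide in the non-coding gene Dancr, had 39795, 37599 and 41159 in cardiomyocytes and 38170, 36439 and 41489 in NIH3T3, a difference of 0.03 as deposited and 0.59 after centring (adjusted p 0.90 and 0.19), or 0.82 centred without cardiomyocyte sample 1 (adjusted p 0.0066). Snora31, in the translation-related gene Tpt1, had 16553, 12516 and 15942 in cardiomyocytes and 20300, 21917 and 24488 in NIH3T3 (-0.57 as deposited and -0.02 after centring). Snora15, an 18S guide in the chaperonin gene Cct6a, had 11049, 6235 and 10793 in cardiomyocytes and 13362, 14773 and 15889 in NIH3T3 (-0.69 and -0.14). Neither Snora31 nor Snora15 passed on either scaling, and the interval of each lay within 2-fold after centring only. Snora69, in Rpl39, had 14004, 9671 and 6461 in cardiomyocytes and 10917, 15431 and 16024 in NIH3T3 (-0.54 as deposited and 0.013 after centring, neither passing). Snora36b, an 18S guide in Rab3gap2, was low in both groups, with 286, 548 and 328 in cardiomyocytes and 282, 298 and 323 in NIH3T3 (0.31 as deposited, adjusted p 0.45, and 0.86 after centring, adjusted p 0.17). Without cardiomyocyte sample 1, Snora31, Snora15 and Snora69 were lower as deposited (-0.65, -0.84 and -0.82, adjusted p 0.026, 0.034 and 0.034) and Snora36b was higher after centring (1.29, adjusted p 0.0028).

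For 12 features neither a call nor an interval within 2-fold was reached on either scaling, Snora33 and Snora47 among them. Snora30, a 28S guide in Srcap, had 3185, 9368 and 9047 normalized counts in cardiomyocytes and 3772, 3403 and 4003 in NIH3T3. Cardiomyocyte sample 1 was at the NIH3T3 level and the other 2 were above it, and without that sample Snora30 was called on both scalings (1.31 and 2.10, adjusted p 0.0016 and 0.00016). Snora75, in the nucleolin gene Ncl, went the other way within the group, with 16952, 2840 and 5640 in cardiomyocytes around 5448, 7996 and 8425 in NIH3T3. Snora43, a 28S guide in Snhg7, had 12592, 3423 and 8986 in cardiomyocytes and 8839, 8598 and 9954 in NIH3T3. The other 9 named snoRNAs, which passed on neither scaling and are given no values per sample here, had log2 differences between -0.40 (Snora28) and 0.0058 (Snora65) as deposited and between 0.15 (Snora28) and 0.56 (Snora65) after centring, where all 9 were above 0. Without cardiomyocyte sample 1, 5 of these 9 were higher in cardiomyocytes after centring: Snora70 (0.74, adjusted p 0.012), Snora68 (0.69, 0.020), Snora7a (0.76, 0.031), Snora5c (0.66, 0.016) and Snora28 (0.59, 0.041).

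By rRNA target, 1 of 7 measured guides of 18S rRNA was called on each scaling, Snora24, where 17.9% of all features were called as deposited and 14.9% after centring, with a list median log2 difference of -0.40 as deposited and 0.15 after centring. Of 17 guides of 28S rRNA 5 were lower and 0 higher as deposited (Snora2b, Snora34, Snora3, Snora21 and Snora17), where 13.4% of all features were lower and 4.48% higher. After centring 2 were higher (Snora64 and Snora81) and 1 lower (Snora2b), where 11.9% of all features were higher and 2.99% lower. The median of the 28S list equalled that of all features on both scalings (-0.29 and 0.27).

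The same shares of all features, 13.4% lower and 4.48% higher as deposited and 2.99% lower and 11.9% higher after centring, stand beside the counts by host. The 4 snoRNAs classed under translation factor genes were Snora81, Snora41, Snora28 and Snora31, the last counted here although Tpt1 is only translation-related. They had 0 calls as deposited and 2 higher after centring, with list medians of 0.13 and 0.68 against -0.29 and 0.27 for all features. Of 9 in non-coding hosts 3 were lower as deposited (Snora24, Snora74a and Snora17) and 1, Snora24, after centring, with medians of -0.48 and 0.07. Of 12 in ribosomal protein genes 2 were lower as deposited (Snora3 and Snora21) and 1 was higher after centring (Snora64), with medians of -0.27 and 0.28. Snora78, which the table places in both Rps2 and Snhg9, counts in both of these lists and passed on neither scaling. The other 9 had 2 lower as deposited (Snora2b and Snora34) and 1 after centring. The lists were described by counts only.

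A ratio of 2 snoRNAs within 1 sample does not depend on a factor applied to the whole sample, and 4 host genes held a pair. In Rps2, log2(Snora64/Snora78) was 2.02, 1.26 and 0.84 in cardiomyocytes and -0.31, 0.34 and 0.22 in NIH3T3, so the ratio was 2.44-fold higher in cardiomyocytes without overlap. Snora78 also lies in Snhg9, so whether these 2 snoRNAs come from 1 host transcript is not known. In Kansl2, log2(Snora2b/Snora34) was -0.36, -0.55 and -0.58 in cardiomyocytes and -0.22, -0.26 and -0.27 in NIH3T3, a 1.19-fold lower ratio, also without overlap. Exact permutation tests gave p = 0.1 for each of these 2 pairs, the smallest possible, or 0.2 after adjustment over the 4 pairs. In Snhg12, log2(Snora44/Snora16a) averaged -1.18 ± 0.07 in cardiomyocytes and -1.10 ± 0.16 in NIH3T3 (exact p = 0.6). In Snhg7, log2(Snora43/Snora17) averaged -1.63 ± 0.91 and -1.92 ± 0.07 (SD, n = 3 each; exact p = 0.7), and the cardiomyocyte values ran from -2.62 to -0.82.

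**Figure D4:**
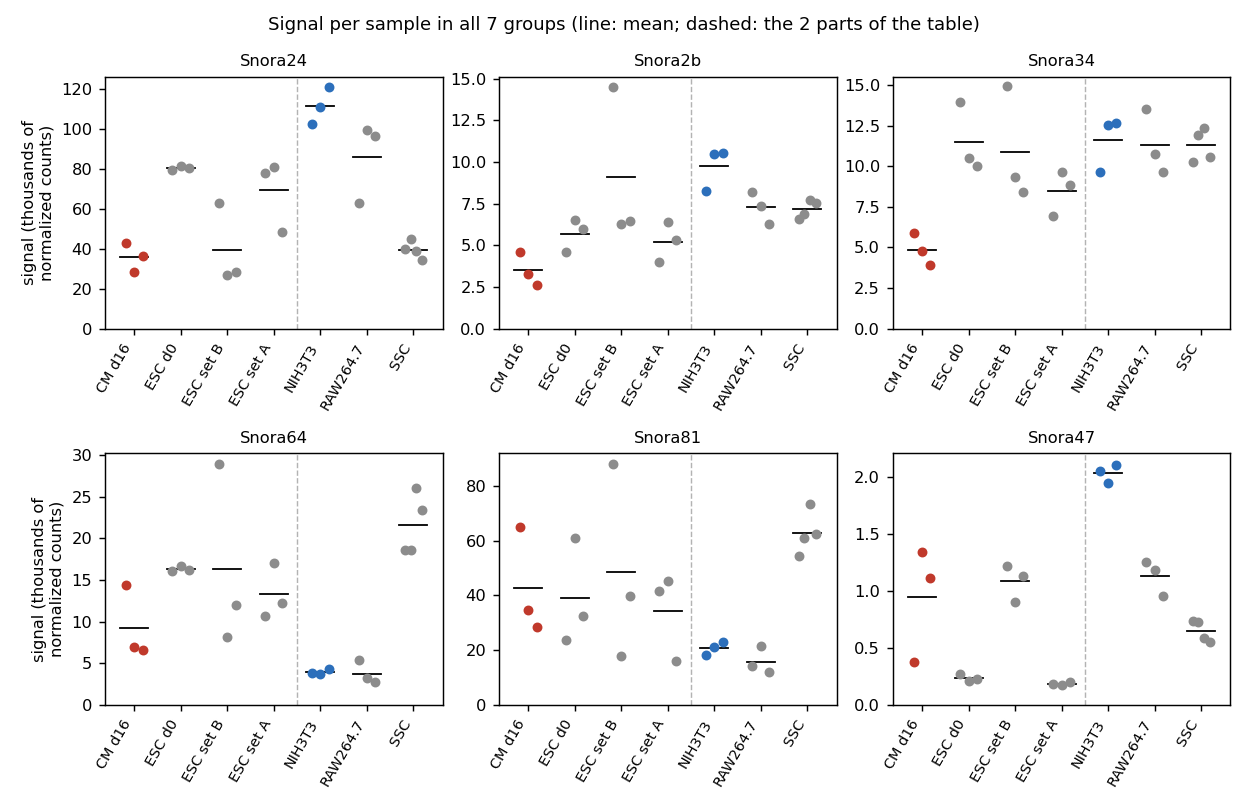
Signal per sample of 6 snoRNAs in all 7 groups, in normalized counts as deposited (axes in units of 1000). Red points are cardiomyocytes at day 16, blue points NIH3T3, grey points the other groups, horizontal lines the group means, and the dashed line separates the 2 parts of the table. Every NIH3T3 sample lies above all other samples for Snora24 and Snora47, and every cardiomyocyte sample lies below all other samples for Snora34. By group mean NIH3T3 is also highest for Snora2b and Snora34, and cardiomyocytes are also lowest for Snora24 and Snora2b.

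The other groups place these levels as deposited, and the order of groups was not examined after centring. Cardiomyocytes lay below all 19 other samples in 5 of 67 features and above them in 1, and NIH3T3 lay above all other samples in 2, Snora24 and Snora47, and below them in 0. Snora64 averaged 9278 ± 4414 normalized counts in cardiomyocytes and 3943 ± 330 in NIH3T3, next to 16307 ± 297 in ESCs at day 0, which share the cardiomyocytes' part of the table, and 3763 ± 1396 in RAW264.7, which share that of NIH3T3 (SD, n = 3 each). SSCs, also in the part of NIH3T3, had the highest mean of all groups, 21622 ± 3676 (SD, n = 4). Snora2b had 3496 ± 1007 in cardiomyocytes and 9776 ± 1304 in NIH3T3, next to 5680 ± 1005 in ESCs at day 0, 7277 ± 955 in RAW264.7 and 7179 ± 529 in SSCs. Snora34 stood at 11494 ± 2141 in ESCs at day 0, 11317 ± 1993 in RAW264.7 and 11289 ± 1023 in SSCs, against 4867 ± 998 in cardiomyocytes and 11622 ± 1729 in NIH3T3. Across the 67 features the log2 means of cardiomyocytes correlated with those of NIH3T3 (Pearson's r = 0.959) about as with those of ESCs at day 0 (r = 0.949), a description over features that share samples and probes. Of the 10 most abundant features of each group 9 were shared.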

How the data were processed

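Per the labels' protocols, RNA was isolated by Trizol, with a DNase step and a column clean-up. The authors deposited 1 table of normalized signal, here called normalized counts. The normalization, software and treatment of background are not given in the sources used here. In each sample every deposited value of the signal (100%) was a multiple of 1 step within a tolerance of 0.02. The step ran from 0.956 to 1.22 in the 6 samples compared, which gives totals of 932203 to 1427359 whole counts. Counting error weighs most on the features of lowest signal and was not set against the spread between samples. Whether replicates came from separate cultures is not labelled, so p-values reflect only how these samples vary, and that variation may be technical.

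Features were named through RefSeq (GRCm38.p6): 34 of 72 matched a symbol, and hosts were the genes of that table that contain the snoRNA. Because no build is named for the data, no snoRNA coordinates are given. A probe may also bind RNA of a closely similar snoRNA copy. On log2(value + 1), the 6 samples were fitted with limma 3.58.1 (R 4.3.3), with two-sided moderated tests and Benjamini-Hochberg adjustment over the 67 features, as deposited and after median centring per sample. The fit on the deposited scale was run on simulated data with equal spread in both groups and planted differences larger than any found here. That run therefore says nothing about the calls made here. Exact permutation tests used scipy 1.17.1. Alternatives were other scalings, pseudocounts of 0.5 and 10, a mean of at least 100, all 22 samples, group-level weights, limma-trend, the replicate number as a block and leaving out each sample. Members and lists were chosen with earlier results of these data known. Values per sample were given for snoRNAs called on both scalings, for the 6 most abundant ones with an interval within 2-fold after centring and no call, and for 7 fixed ones. Snora81, Snora41, Snora34, Snora21, Snora17, Snora3, Snora26, Snora30, Snora75, Snora43 and the host pairs were singled out after their values were seen. Replicate numbers do not pair the samples: deviations of same-numbered samples correlated at -0.53, -0.24 and -0.46 across features.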

Additional observations from a re-analysis of the deposited data

Results flagged for a closer look

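The 5 features that are blank in NIH3T3 entered no comparison, and each held a signal in all 3 cardiomyocyte samples above the limit that a count of 0 allows (3 counts, or 2.87 to 3.66 normalized counts per sample, for counting error only). Mean signal in cardiomyocytes was 52.0 normalized counts for ENSMUST00000083277.1, 41.6 for ENSMUST00000104381.1, 24.7 for ENSMUST00000116744.1, 20.8 for ENSMUST00000116932.1 and 22.1 for Snora35, which lies in the serotonin receptor gene Htr2c. These are below the lowest compared feature, Snora23, at 72.0 in cardiomyocytes and 81.5 in NIH3T3. How background was treated is not known. For ENSMUST00000083277.1 sample 3 held 101.39, against 33.75 and 20.74 in the other two.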

How the results depend on the processing

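Pseudocounts, the filter on low means and group-level weights kept all 4 counts (12 as deposited, 10 after centring, 5 on both and 19 intervals within 2-fold after centring) within 1.5 times. With all 22 samples in the fit they were 27, 18, 10 and 30. Limma-trend gave 20 as deposited and 8 on both. With the replicate block, whose numbers do not pair the samples, 0 were called as deposited (21 at an unadjusted p under 0.05 in limma) and 0 on both, while 9 were called after centring. Leaving out 1 sample at a time gave 0 to 29 calls as deposited, 1 to 33 after centring, 0 to 11 on both and 9 to 27 intervals within 2-fold. The last count was 36 centred on the mean, 31 scaled to equal totals, 33 under quantile normalization and 30 as deposited. The total kept its sign throughout.

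Directions turned only for differences that were not called on the scale concerned. Between the scalings many features turned, since 46 of 67 lay below 0 as deposited and 20 after centring. Of those given per sample by the naming rule, Snora16a (0.071 centred), Snora69 (0.013) and Snora62 (0.27, and 0.15 under quantile normalization) turned, and Snora69 was -0.0083 under the filter. Leaving out 1 sample at a time, centred differences ran from -0.093 to 0.26 for Snora16a, -0.18 to 0.14 for Snora44, -0.20 to 0.14 for Snora31, -0.10 to 0.16 for Snora69, -0.40 to 0.025 for Snora15, -0.38 to 0.048 for Snora74a, -1.21 to 0.059 for Snora47, -0.30 to 0.14 for Snora21 and -0.25 to 0.20 for Snora17. As deposited, Snora73a ran from -0.017 to 0.080. The cause was not tested. Planned tests of single features on whole counts were not run, because the deposited values are normalized. Only the total per sample was tested on whole counts.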

Other observations

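The most abundant feature in both groups was ENSMUST00000082448.1, singled out after its values were seen. It held 191011, 196362 and 171906 normalized counts in cardiomyocytes and 140519, 146990 and 158576 in NIH3T3. As deposited, the cardiomyocyte samples held more of it than each of the other 19 samples of the series. It made up 14.5%, 17.3% and 14.6% of the summed signal in cardiomyocytes and 10.6%, 11.1% and 10.8% in NIH3T3. The difference did not pass as deposited (log2 difference 0.33, adjusted p 0.15) or after centring (0.88, adjusted p 0.061), but passed after centring without cardiomyocyte sample 1 (1.10, adjusted p 0.0017) and when samples were scaled to equal totals (0.51, adjusted p 0.048). The 3 most abundant features of each sample took 32.5% ± 3.66 of the signal in cardiomyocytes and 28.2% ± 0.0687 in NIH3T3 (SD, n = 3 each; exact permutation p = 0.1, the smallest possible).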
